A study of Rattus norvegicus with 36 samples.

Results

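Acta2, the gene for alpha smooth muscle actin, was followed across 6 groups of rat precision-cut lung slices, an ex vivo model in which thin sections of living lung are cultured. It is 1 of the 32883 gene IDs in the deposited count table, row ENSRNOG00000058039, and was chosen by that ID. The deposited tables carry IDs only and the reference gene table at hand holds no Ensembl IDs, so the pairing of this ID with the name Acta2 was taken as given and could not be checked against the files. RNA sequencing was done on 36 libraries, 6 in each group, from a study set up to characterize this slice model for testing anti-fibrotic drugs. The groups were slices given TGFb together with Pirf, with Nint or with Sora, slices given TGFb alone, and untreated slices, all at the labelled time 72, and untreated slices at the labelled time 0. The labels give no unit of time, no dose, and no strain, age or sex, and they do not tie replicates to animals. The p-values below therefore cover the spread among these libraries, part or all of which may be technical. From knowledge of the study, Pirf is taken as pirfenidone, Nint as nintedanib and Sora as sorafenib.

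Alpha smooth muscle actin forms the contractile filaments of vascular and airway smooth muscle. In lung fibrosis it is the usual marker of myofibroblasts, the contractile cells that lay down matrix. TGFb is a growth factor that drives fibroblasts toward this state. It signals through receptors that phosphorylate Smad proteins. The actin gene is also controlled by serum response factor (SRF), which binds CArG boxes, and by the coactivators of SRF. Pirfenidone and nintedanib are drugs used in pulmonary fibrosis, and nintedanib and sorafenib are inhibitors of receptor tyrosine kinases. Smooth muscle and other cell type markers could not be checked in these slices, since no other ID is paired with a name.

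The promoter of rat Acta2 is shown because SRF and Smad proteins are described as acting on this gene there. The RefSeq promoter table for build GRCr8, a later build than the one used for the counts, was matched by symbol, for 1 of 1 member. The stretch below is the 250 bases before the annotated gene start, at chr1:241172504-241172753 on the minus strand, written 5′ to 3′, with capitals marking CArG-like boxes, that is, a CArG box with 1 base in its A/T centre that is G or C.

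Acta2 promoter: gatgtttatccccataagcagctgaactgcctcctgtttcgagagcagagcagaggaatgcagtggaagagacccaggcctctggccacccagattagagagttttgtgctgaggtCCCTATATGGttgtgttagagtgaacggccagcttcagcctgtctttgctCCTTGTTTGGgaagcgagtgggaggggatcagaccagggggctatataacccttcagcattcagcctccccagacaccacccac

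No exact CArG box was found on either strand, and 1.5% of the 33469 promoter windows of the same length hold one. The looser form, searched after the sequence had been seen, was found as CCCTATATGG, 134 to 125 bases before the start, and CCTTGTTTGG, 84 to 75 bases before it. At least 1 such box was present in 6.84% of all windows, and 2 or more in 0.43%. An E-box, CANNTG, matched at 1 position in the Acta2 window and in 65.5% of all windows. The Smad element CAGAC, searched on both strands, matched at 2 positions in the Acta2 window and in 42.9% of all windows. No match overlapped another in the Acta2 window, and a match is a description of the letters only.

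Acta2 was sampled by 85 to 1368 expected counts per library, out of total counts of 15886958 to 32933012. Counting error alone thus corresponds to a coefficient of variation of 2.70% to 10.8% per library. The authors' counts are RSEM estimates, in which reads that match several genes are shared out, and other actin genes resemble Acta2 closely. The Acta2 count was a whole number, to within 1e-09, in 34 of the 36 libraries, and the largest departure from a whole number was 0.007 counts. The strand setting of the counting is not given in the sources used here, so reads of any antisense partner cannot be told apart. Levels are given below as normalized counts, which are counts scaled by trimmed mean of M values (TMM) factors to the mean library size.

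Acta2 was lowest in untreated slices at 72 and highest with TGFb alone at 72. Pirf libraries held 112 normalized counts at the lowest, 209 at the median and 249 at the highest, with a mean of 199 ± 46.2 (SD, n = 6). Nint libraries held 689.7 at the lowest, 777 at the median and 882 at the highest, with a mean of 776 ± 74.9 (SD, n = 6). Sora libraries held 376 at the lowest, 497 at the median and 611 at the highest, with a mean of 492 ± 85.2 (SD, n = 6). All Nint libraries lay above all Pirf libraries, as was so for 20.2% of genes tested. All Sora libraries also lay above all Pirf libraries, as for 12.7% of genes, and below all Nint libraries, as for 2.08%. TGFb-alone libraries held 733 at the lowest, 974 at the median and 1068 at the highest, with a mean of 947 ± 129 (SD, n = 6). Untreated libraries at 72 held 106 at the lowest, 136 at the median and 250.3 at the highest, with a mean of 158 ± 58.0 (SD, n = 6). Untreated libraries at 0 held 198 at the lowest, 322 at the median and 734 at the highest, with a mean of 412 ± 205 (SD, n = 6). At time 0 replicates 2 and 4, at 734 and 592, stood above the other 4, which held 330.1 or less.

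**Figure D1:**
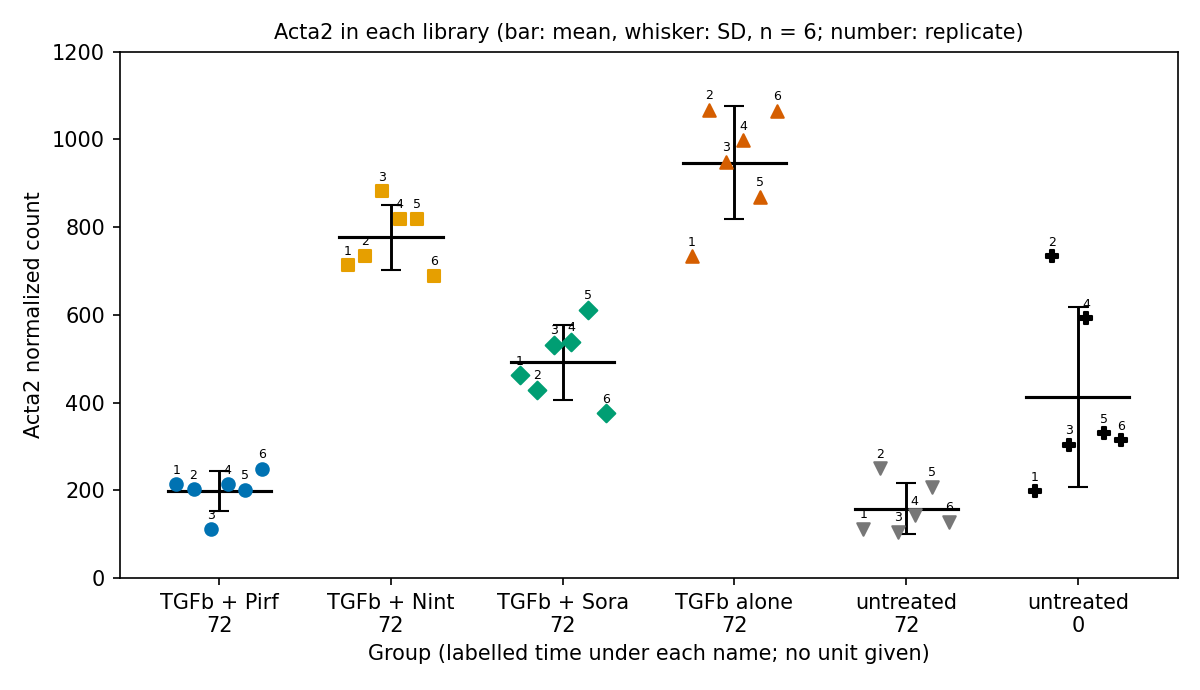
Acta2 normalized counts (vertical axis, linear from 0) in each of the 36 libraries, by group, with the group mean (bar) and SD (whisker) over 6 libraries and the replicate number above each point. The Pirf libraries lie at 112 to 249, in the range of the untreated slices at 72, while the Nint libraries lie at 689.7 to 882, beside TGFb alone at 733 to 1068.

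In order of mean level, from high to low, the groups were TGFb alone, Nint, Sora, untreated at 0, Pirf and untreated at 72. Of the 5 pairs of neighbours in this order, 2 passed the test, which was edgeR's quasi-likelihood test with Benjamini-Hochberg adjustment over all 15644 genes tested. These were Pirf against untreated at 0 (adjusted p = 0.000131) and Sora against Nint (adjusted p = 0.0497), of which the second was lost in 23 of the 36 fits that left out a library, on total counts (0.0781), without the filter on low counts (0.0775) and with the code number in the sample descriptions as a factor (0.153). Nint against TGFb alone (adjusted p = 0.694), Sora against untreated at 0 (adjusted p = 0.293) and Pirf against untreated at 72 (adjusted p = 0.236) did not, although Sora against untreated at 0 passed without time-0 replicate 2 (adjusted p = 0.0327). A p that misses the threshold does not show that such levels are equal. The code numbers were spread unevenly over the Nint and Sora libraries, so code and drug are partly confounded in that pair. They were also uneven over other groups, so code and treatment are partly confounded in other pairs, including those with untreated slices at 72.

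The first question was how the gene answered the growth factor. Acta2 rose to 947 normalized counts with TGFb alone, against 158 in untreated slices at 72, a log2 fold change of 2.58 (SE 0.24, 95% interval 2.10 to 3.06, adjusted p = 7.18e-10), or 5.98-fold. All 6 libraries with TGFb lay above all 6 without it, as was so for 6.84% of genes tested. In this comparison 14.0% of genes were called higher, with 2187 higher and 1943 lower, a balance that turned to 1363 and 2543 on total counts without TMM factors. Acta2 had the 68th highest log2 fold change of the 15644 genes, and 64 called genes, Acta2 included, rose by as much or more. In whole slices, more cells that express the gene and more Acta2 RNA per cell cannot be told apart.

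The TGFb-alone libraries are shared by the comparison above and the 3 drug comparisons that follow, so these are not independent of it. With Pirf, Acta2 fell to 199 normalized counts, against 947 with TGFb alone. The log2 fold change was -2.25 (SE 0.23, 95% interval -2.72 to -1.77, adjusted p = 2.57e-09), so the level was 4.75-fold lower. All 6 Pirf libraries lay below all 6 with TGFb alone, as was so for 16.4% of genes tested, and 26.4% of genes were called lower. Calls over all genes were 3926 higher and 4135 lower, or 5973 and 2594 on total counts. Acta2 had the 184th lowest log2 fold change in this comparison.

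With Nint, Acta2 averaged 776 normalized counts, against 947 with TGFb alone. The log2 fold change was -0.29 (SE 0.22, 95% interval -0.73 to 0.16, adjusted p = 0.694), which did not pass the test. The interval reaches from a level of 0.602 to a level of 1.12 times that with TGFb alone. Of the 6 Nint libraries, 2 lay below the lowest library with TGFb alone and the other 4 lay within its range. Few genes were called in this comparison, 3.09% of those tested in either direction. Acta2 had the 1900th lowest log2 fold change here. An exact two-sided permutation test of the authors' log2 CPM values (counts per library total, with TMM factors) for this gene alone, 6 against 6 libraries, gave a difference of -0.26 with p = 0.0346 and an adjusted p = 0.04 over the 15 pairs of groups.

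With Sora, Acta2 fell to 492 normalized counts, against 947 with TGFb alone. The log2 fold change was -0.94 (SE 0.22, 95% interval -1.40 to -0.49, adjusted p = 0.00414), a level 1.92-fold lower. All 6 Sora libraries lay below all 6 with TGFb alone, as was so for 2.94% of genes tested, and 8.37% of genes were called lower. Calls over all genes were 1096 higher and 1310 lower, or 2173 and 684 on total counts. Acta2 had the 292nd lowest log2 fold change here.

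**Figure D2:**
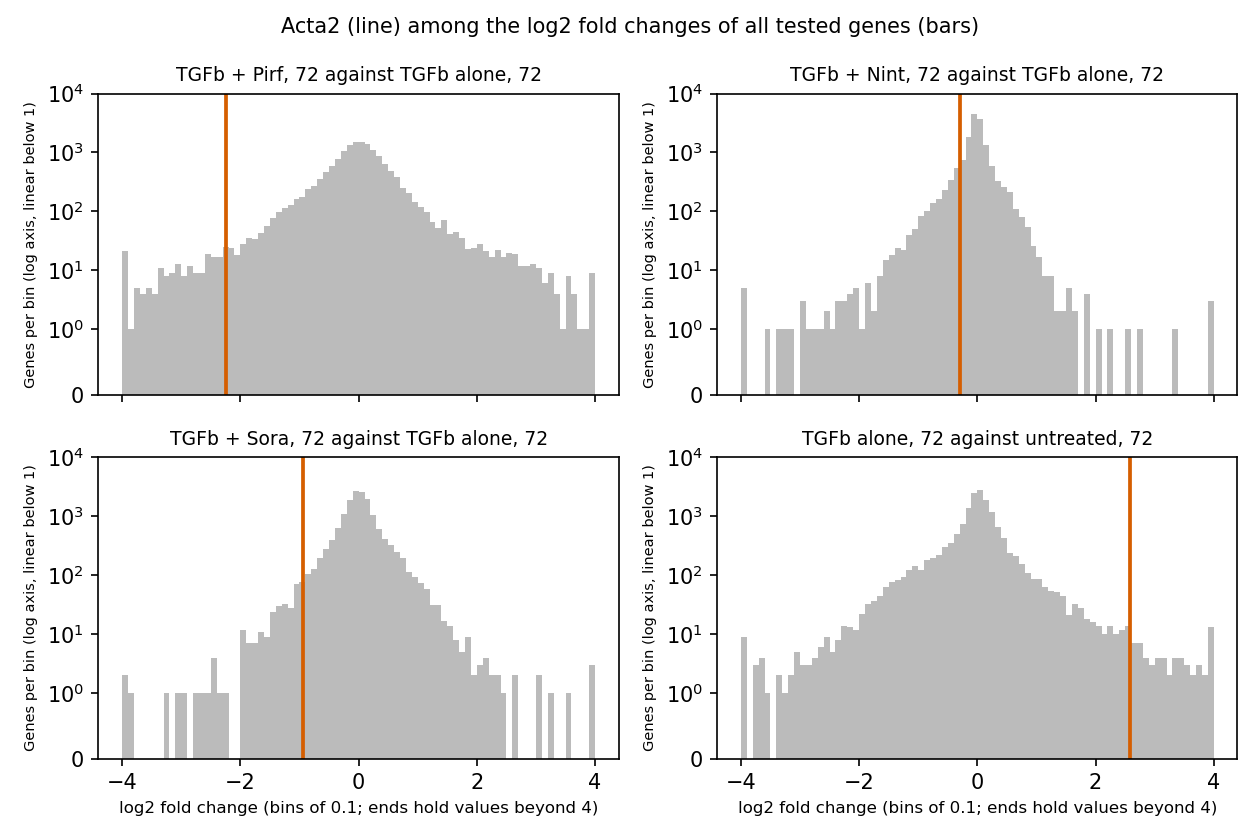
Number of genes (vertical axis, log scale above 1) in each bin of log2 fold change (horizontal axis) for all 15644 genes tested, with Acta2 as a line, with 1 panel for each drug against TGFb alone and 1 for TGFb alone against untreated slices at 72. Acta2 lies in the outer tail at -2.25 with Pirf and at 2.58 with TGFb, and at -0.94 with Sora. With Nint it lies at -0.29, where 80.3% of genes had a smaller absolute change.

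The same levels were set against untreated slices at 72, which asks how far each drug group stood from slices without TGFb. No group was given a drug without TGFb. A drug effect on the TGFb response and a drug effect apart from TGFb therefore cannot be told apart, here or in the shares below. With Pirf, 199 normalized counts stood against 158 in untreated slices (log2 fold change 0.33, SE 0.23, 95% interval -0.14 to 0.81, adjusted p = 0.236), and no Pirf library lay above the highest untreated library. The interval reaches up to 1.75-fold, and 52.0% of genes were called in either direction in that comparison (4061 higher and 4070 lower, or 4954 and 3183 on total counts). With Nint, 776 stood against 158 (log2 fold change 2.29, SE 0.24, adjusted p = 5.96e-09), and 12.6% of genes were called higher (1969 higher and 2168 lower, or 1240 and 2754 on total counts). With Sora, 492 stood against 158 (log2 fold change 1.64, SE 0.23, adjusted p = 4.87e-06), and 13.1% of genes were called higher. All 6 Nint and all 6 Sora libraries lay above all 6 untreated libraries, as did 7.26% of genes tested for Nint and 4.94% for Sora.

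Expressed as a share of the difference in mean normalized counts between TGFb alone and untreated slices at 72, the drop below the mean of TGFb alone was 94.8% ± 5.86 with Pirf, 21.6% ± 9.49 with Nint and 57.7% ± 10.8 with Sora (SD, n = 6 libraries each). For Nint the difference from TGFb alone did not pass the edgeR test (adjusted p = 0.694). It passed the exact permutation test (adjusted p = 0.04 over the 15 pairs of groups). Whether its share differs from 0 is thus not settled. Single libraries ranged over 88.4% to 106% with Pirf, 8.27% to 32.6% with Nint and 42.6% to 72.5% with Sora. These shares are a rescaling of the levels above and add no further separation of the groups. The SD leaves out the spread of the TGFb-alone and untreated libraries, which enter only as means. On the log2 scale the shares were 86.3% ± 15.2 with Pirf, 10.6% ± 5.26 with Nint and 36.1% ± 9.64 with Sora, so the size of the share depends on the scale and the order of the drugs did not.

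The drugs were then compared with each other, over 3 pairs, and their doses are not stated. Nint libraries held 3.89 times the Acta2 level of Pirf libraries (log2 fold change 1.96, SE 0.23, 95% interval 1.49 to 2.43, adjusted p = 2.51e-08), and 26.5% of genes were called higher with Nint (4140 higher and 4404 lower, or 2660 and 6258 on total counts). Sora libraries held 2.47 times the level of Pirf libraries (log2 fold change 1.30, SE 0.23, 95% interval 0.84 to 1.77, adjusted p = 2.79e-05), and 21.8% of genes were called higher with Sora. Sora libraries held 0.634 times the level of Nint libraries (log2 fold change -0.66, SE 0.22, 95% interval -1.11 to -0.21, adjusted p = 0.0497), and 4.56% of genes were called lower with Sora (1006 higher and 714 lower, or 2148 and 432 on total counts). In each pair all 36 pairings of a library with a library had the same direction, with the shares of genes given above. The last call sits at the threshold, with adjusted p-values from 0.0285 to 0.1 over the 36 fits that left out a library. The exact two-sided permutation test of 6 against 6 libraries gave p = 0.00216 for each pair of drugs, the smallest it allows, with an adjusted p = 0.00361 over the 15 pairs of groups.

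**Figure D3:**
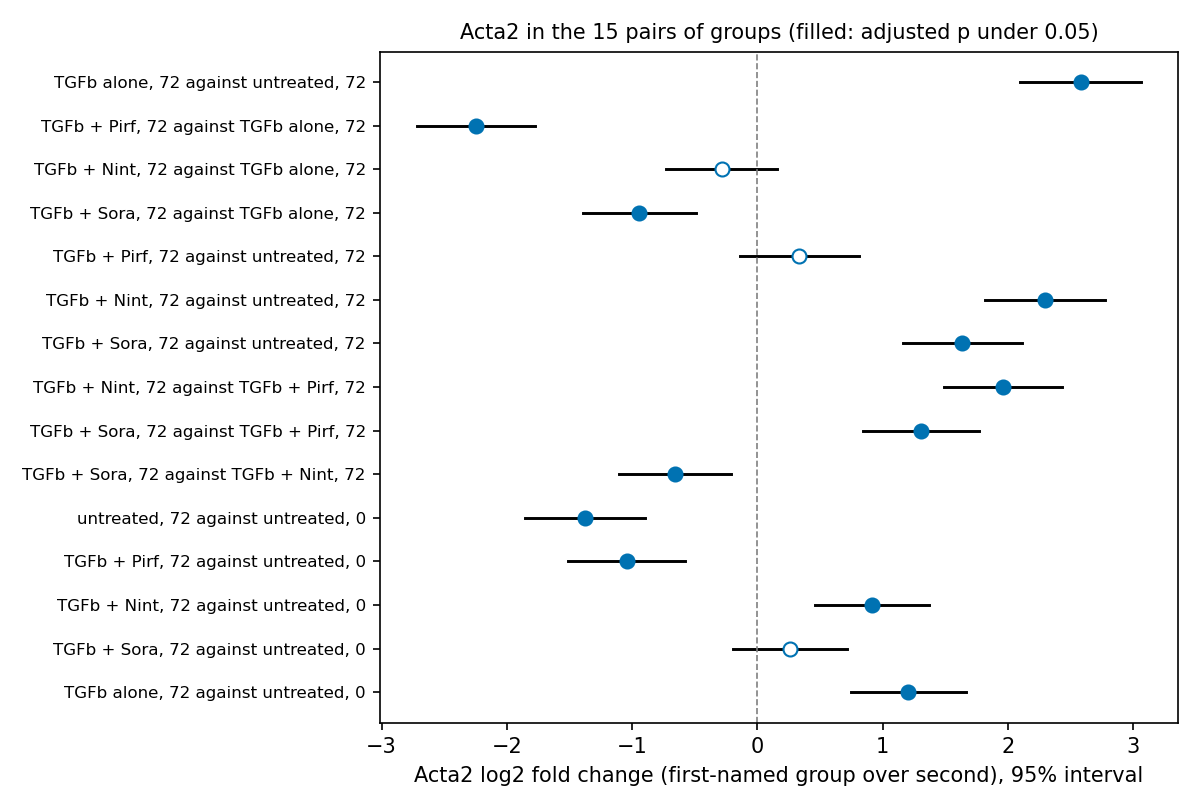
Acta2 log2 fold change (horizontal axis, the first-named group over the second) with its 95% interval for the 15 pairs of groups, from the edgeR fit of all 36 libraries. Filled points, 12 of 15, had an adjusted p under 0.05, and the open points are Nint against TGFb alone, Pirf against untreated at 72 and Sora against untreated at 0.

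The gene was also followed in culture without treatment. Acta2 fell to 158 normalized counts in untreated slices at 72, against 412 at 0 (log2 fold change -1.38, SE 0.23, 95% interval -1.85 to -0.90, adjusted p = 3.38e-06), or 2.60-fold lower. The SE rests on 1 spread for the gene, shared by all 6 groups. The SD of the authors' log2 CPM differed between groups, at 0.137 with Nint, 0.495 in untreated slices at 72 and 0.680 at time 0. The SE and interval may thus be too small for comparisons with time 0. In the exact permutation test p was 0.00649, with an adjusted p = 0.00885 over the 15 pairs of groups. Most genes moved with time in culture, and 35.3% of genes tested were called lower. The groups overlapped, since 4 of the 6 libraries at 72 lay below all libraries at 0 and the other 2 did not. The call held without any single library, with log2 fold changes from -1.55 to -1.13.

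The time-0 level also served as a yardstick for the slices with TGFb. With Pirf, 199 normalized counts stood against 412 at time 0 (log2 fold change -1.04, SE 0.23, adjusted p = 0.000131), in a comparison that called 35.6% of genes lower. With Nint, 776 stood against 412 (log2 fold change 0.92, SE 0.22, adjusted p = 0.000443), where 39.1% of genes were called higher. With Sora, 492 stood against 412 (log2 fold change 0.26, SE 0.22, 95% interval -0.20 to 0.71, adjusted p = 0.293), where 76.4% of genes were called in either direction. Without time-0 replicate 2, the highest of its group, the Sora log2 fold change was 0.50 and passed the test (adjusted p = 0.0327). With TGFb alone, 947 stood against 412 (log2 fold change 1.20, SE 0.22, adjusted p = 1.33e-05), where 39.9% of genes were called higher. The groups overlapped in each of these 4 comparisons. In the exact permutation test, adjusted p over the 15 pairs was 0.0162 with Pirf, 0.00649 with Nint, 0.197 with Sora and 0.00361 with TGFb alone.

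The genes whose pattern was most like that of Acta2 were sought by the Pearson correlation of log2 CPM over the 36 libraries, among 13591 other genes with a mean of at least 50 normalized counts in some group. These are descriptions over libraries that share their groups and sequencing, and the IDs are not paired with names. ENSRNOG00000016731 had the highest correlation (r = 0.86, Spearman's rho = 0.90). Its means were 932 ± 184 normalized counts with Pirf, 2234 ± 191 with Nint, 1788 ± 333 with Sora, 2805 ± 375 with TGFb alone, 1191 ± 271 in untreated slices at 72 and 1226 ± 739 at 0 (SD, n = 6 each). Deviations from the group means, pooled over the 6 groups, also correlated with those of Acta2 (r = 0.85), the highest of all genes compared. Both genes spread most at time 0 (SD 205 for Acta2 and 739 for this ID), so that group weighs heavily in the pooled r. Not every group followed, since Sora replicate 5 was the highest of its group for Acta2 (611) and the lowest for this ID (1378). At time 0 its replicates 2 and 4 held 2236 and 2074 normalized counts and its other 4 held 495 to 932. The same 2 libraries stood high for Acta2, but the ID was picked for its likeness to Acta2 over these libraries. Unlike Acta2, it did not pass the test between untreated slices at 72 and 0 (log2 fold change -0.04, adjusted p = 0.885), and whether the time effect differed between the genes was not tested.

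ENSRNOG00000002643 came next (r = 0.86, rho = 0.86), at 2868 ± 242 with Pirf, 4051 ± 357 with Nint, 2932 ± 169 with Sora, 4499 ± 470.4 with TGFb alone, 2343 ± 95.6 in untreated slices at 72 and 3482 ± 465 at 0. Its pooled correlation of deviations from the group means was lower, at 0.46. The lowest correlation belonged to ENSRNOG00000013461 (r = -0.89, rho = -0.88), at 3123 ± 242 with Pirf, 2352 ± 122 with Nint, 2732 ± 160.3 with Sora, 2448 ± 137 with TGFb alone, 3157 ± 243 in untreated slices at 72 and 2653 ± 304 at 0. ENSRNOG00000008237 was the next lowest (r = -0.84, rho = -0.82). Over the 30 libraries at 72 alone the correlations of these 4 IDs with Acta2 were 0.92, 0.88, -0.91 and -0.89 in the order given. No gene passed 0.9 in either direction over 36 libraries, while over the 30 at 72 there were 22 genes above 0.9 and 9 below -0.9.

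**Figure D4:**
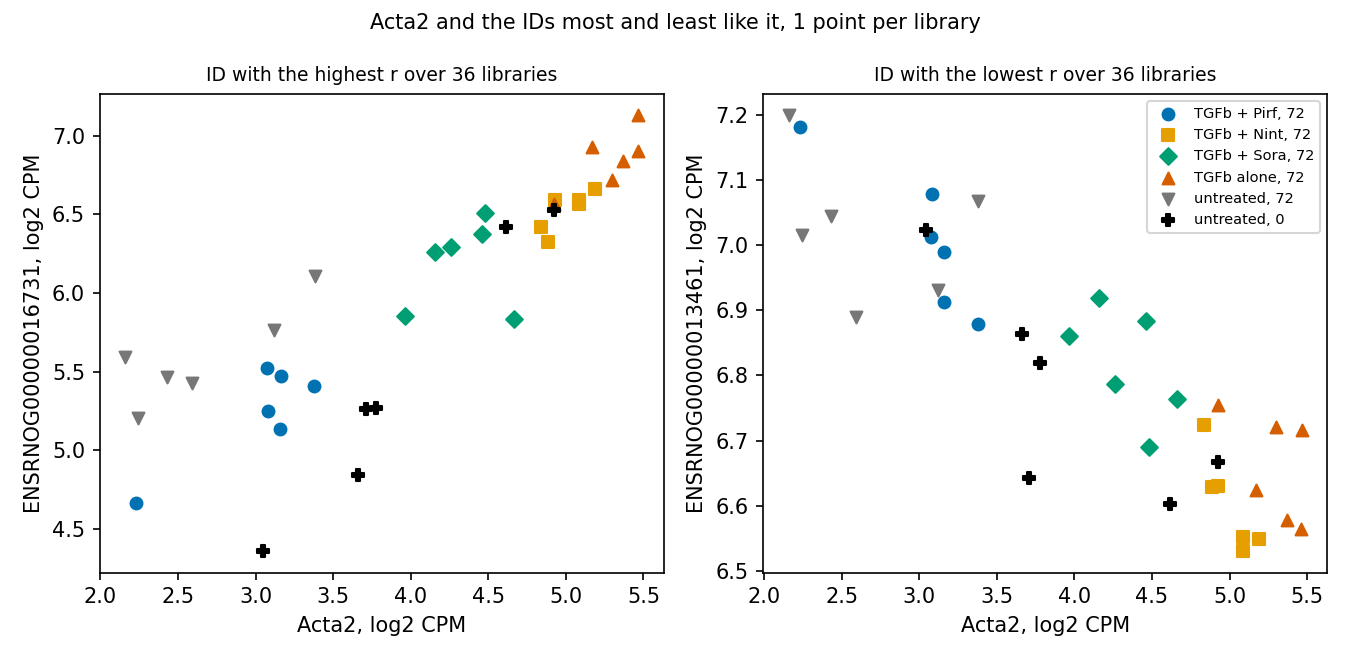
Log2 CPM of ENSRNOG00000016731 (left) and ENSRNOG00000013461 (right) against log2 CPM of Acta2, 1 point per library, with colour and shape for the group. The left panel rises (r = 0.86) and the right panel falls (r = -0.89), and on the left 2 of the time-0 libraries lie among those with Nint or Sora and the other 4 lie lower on both axes.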

How the data were processed

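Libraries were stranded total RNA libraries depleted of ribosomal RNA, per the labels' protocols. The submitters' processing notes name RSEM, edgeR and build Rnor_6.0, and the aligner and annotation release are not stated in the sources used here. One deposited table holds RSEM expected counts, unscaled, as the authors made them. The other holds log2 CPM values that the authors computed for 14984 genes, and these equalled TMM log2 CPM of the count table to within 4.97e-14.

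The expected counts, rounded to whole numbers, were fitted in R 4.3.3 with edgeR 4.0.16 (filterByExpr, 15644 genes kept, TMM, a mean per group, all 36 libraries in 1 fit). glmQLFTest was run for all 15 pairs of groups, p-values were adjusted over all genes (Benjamini-Hochberg), and calls were made below 0.05. SE is the absolute log2 fold change over the square root of F, and rests on 1 spread per gene for all 6 groups. The pipeline was tested on simulated data. DESeq2 1.42.0, limma 3.58.1, exact permutation and other settings were tried. Motif windows came from RefSeq (GRCr8).

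Groups and replicate numbers came from the sample titles. Acta2, the likeness rule (2 highest and 2 lowest correlations) and the gene lists were chosen with earlier results of these data known. The lists by symbol were not used, since 0 IDs are paired with a symbol.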

Additional observations from a re-analysis of the deposited data

Results flagged for a closer look

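Pirf replicate 3 held 112 normalized counts of Acta2, far below the other 5 Pirf libraries, which held 202 to 249. It was flagged because its gap to the next library, as a share of the group's range, exceeded Dixon's 95% critical value for 6 samples. The same library was also the lowest of its group for ENSRNOG00000016731, at 613, against 850.2 to 1113 in the other 5. That ID was picked for its likeness to Acta2 over these same libraries, so its low level is not separate support for the flag. Without it the log2 fold change of Pirf against TGFb alone was -2.13 and that against untreated slices at 72 was 0.45 (adjusted p = 0.102).

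For ENSRNOG00000002643, TGFb-alone replicate 1 held 3621 normalized counts, against 4501 to 4947 in the other 5, and was flagged by the same measure. TGFb-alone replicate 1 was also the lowest of its group for Acta2, at 733. This ID too was picked for its likeness to Acta2, so the match is not separate support. Over Acta2 and the 4 IDs most and least like it, 30 groups were examined and 2 held such a library, and chance gives about 1 in 20.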

How the results depend on the processing

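Of the 15 Acta2 comparisons, 13 kept their direction and their side of the threshold under total counts, no filter on low counts, DESeq2, limma on the authors' log2 CPM, 12-library fits, the replicate block, the code number in the descriptions as a factor, and exact permutation tests. Sora against Nint lost its call with total counts (log2 fold change -0.56, adjusted p = 0.0781), with no filter (-0.65, 0.0775) and with the code number (-0.56, 0.153), and its range was -0.73 to -0.59 when single libraries were left out. Nint against TGFb alone passed in the exact permutation test (-0.26, adjusted p = 0.04). Sora against untreated at 0 ranged from 0.12 to 0.50 when single libraries were left out. The cause of these changes was not tested. With the replicate number as a block, TGFb against untreated was 2.62 and Sora against Nint was -0.66 (adjusted p = 0.032), no Acta2 call changed and the numbers of genes called stayed within 1.5 times. Same-numbered libraries had a mean correlation of deviations of 0.017, against -0.0034 for other numbers. It ranged from -0.060 for replicate 6 to 0.12 for replicate 5. Of 90 same-numbered pairs, 24 exceeded 0.1, and 11 of 36 libraries correlated best with their own number. These values do not settle whether the numbers mark pairs. The labels do not say so, and the main fit used no pairing. Total counts moved the median of all genes by 0.15 for Pirf and 0.10 for Sora against TGFb alone, where Acta2 stood at -2.10 and -0.85, by -0.15 for Nint against Pirf, and by 0.16 for Pirf and 0.10 for Sora against untreated at 0. For Sora against Nint, whose call was lost on total counts, the median moved by 0.098.

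Numbers of genes called in either direction moved by over 1.5 times for Sora over Nint (1133 without the filter against 1720), Nint over TGFb alone (262 with the code number against 483) and Sora over TGFb alone (1423 with 12 libraries against 2406). Besides the total-count splits given with the results, numbers called lower moved as much for Sora over Nint (452 without the filter and 1165 with DESeq2 against 714), Nint over TGFb alone (212 without the filter and 186 with the code number against 345) and Sora over TGFb alone (772 without the filter and 755 with 12 libraries against 1310). Leaving out single libraries gave 942 to 2819 for Sora over Nint in 8 fits and 299 to 309 for Nint in 2 fits, and numbers called lower of 348 to 1349 for Sora over Nint in 9 fits, 173 to 229 for Nint over TGFb alone in 2 and 862 to 870 for Sora over TGFb alone in 2. Group levels computed from the authors' log2 CPM differed from those given by less than 1 SD. At the lowest counts of Acta2, 85 in a library, counting error limits the precision.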

Other observations

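Acta2 varied more between libraries of a group than the median gene of similar count did, in each of the 6 groups. Its coefficient of variation was 23.2% with Pirf, 9.64% with Nint, 17.3% with Sora, 13.6% with TGFb alone, 36.7% in untreated slices at 72 and 49.7% at 0. Medians over genes whose group mean lay within 1.5 times that of Acta2 were 10.7%, 7.02%, 10.6%, 9.12%, 14.1% and 12.9% in the same order of groups, over 1772 to 3100 genes. These are descriptions with no test.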
